A study of Acipenser transmontanus and Acipenser medirostris with 18 samples.

Results

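The transcripts of splicing factors and ribonucleoproteins were followed in PacBio Iso-Seq counts from sturgeon epithelial cultures and tissues. Members were taken by name. A transcript was included if its sterlet protein description held serine/arginine-rich splicing factor, serine/arginine repetitive matrix, heterogeneous nuclear ribonucleoprotein (hnRNP), splicing factor 3, splicing factor U2AF or small nuclear ribonucleoprotein (snRNP). This gave 714 of the 70537 transcripts, at 95 of the 13249 PacBio loci, with 27685 counts or 1.012% of all counts. A locus is a stretch of the sterlet genome to which reads were assigned, and the different transcripts counted at a locus are called its forms here.

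Splicing removes introns from precursor mRNA on the spliceosome, a machine built anew on each intron. The U1 snRNP pairs with the start of the intron, U2AF and the SF3a and SF3b complexes of the U2 snRNP fix its branch point and end, and the joined U4, U6 and U5 snRNPs complete the reaction. SR proteins bind exons and recruit these parts, the SR repetitive matrix proteins SRRM1 and SRRM2 bridge them, and hnRNPs coat the remaining RNA and often act against SR proteins. Many genes of both families are known to regulate their own level through alternative forms.

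The libraries were 1 of green sturgeon fibroblasts and adipocytes, 6 of epithelial cultures of green sturgeon (Acipenser medirostris) from the upper palate, mouth rim, esophagus and ampullae of Lorenzini, 5 of epithelial cultures of white sturgeon (Acipenser transmontanus) from the mouth rim and skin, and 6 of white sturgeon tissues, 1 each from dorsal skin, barbel, esophagus, mouth rim, upper palate and ampullae. All fish were octoploid by label, apart from the donor of 1 white mouth rim culture, which was dodecaploid. The cultures were primary cells begun on mouse feeder cells, from explants that in green sturgeon alone were trypsinized first, and grown to confluence in medium with serum, EGF, hydrocortisone, insulin and the rho kinase inhibitor Y27632, and the tissues were not cultured. The fish behind each library is not given, so p-values measure the spread between libraries, and some may share a donor. By the numbering of their columns, the libraries fall in 3 sets of 6, namely the white cultures with 1 green ampullae culture (replicate 6), the other green cultures with the fibroblast library, and the tissues. Culture and library set cannot be told apart in the white sturgeon comparison. Among the cultures, library set follows species apart from replicate 6, and trypsinization and species cannot be told apart. The mouth rim was the only site with cultures of both species, so site and species cannot be told apart at the other sites.

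Library totals were 124136 to 302286 counts in green cultures, 90002 to 129568 in white cultures and 29797 to 204203 in white tissues. Levels are given in CPM, the counts of a locus scaled to a library total of 1000000. A single count was worth 3.31 CPM in the deepest library and 33.6 CPM in the shallowest, the esophagus tissue. Keratin transcripts, the mark of epithelium, made up 0.398% of counts in the fibroblast library, 0.926% to 9.60% in green cultures, 3.61% to 9.66% in white cultures and 3.73% to 17.1% in tissues. Transcripts of immune marker genes made up at most 0.00207% in white cultures and 0.0981% to 0.546% in tissues. The share of counts with a protein name was 95.4% or more in all cultures, and in tissues it was 65.2% in esophagus, 80.8% in upper palate, 87.3% in ampullae and 90.5% or more in the others. In such bulk samples, fewer cells of a type and less RNA per cell cannot be told apart.

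The members divide into 27 hnRNP loci with 50.5% of the member counts, 24 loci of snRNP proteins (17.01%), 19 of SR splicing factors (14.7%), 13 of the SF3 complexes (10.8%), 6 of SR repetitive matrix proteins (3.74%), 3 of U2AF (1.50%), and 3 whose names met the rule through the letters alone, SMN-related splicing factor and a PRP38B homologue (1.81%). Counts were uneven. The locus of hnRNP A0-like (PB.21910), an hnRNP known to bind AU-rich mRNA, held 24.2% of them, 51 loci had 100 counts or more, and 24 had fewer than 10. Loci carried 1 to 53 forms (median 4), with the most at the SRSF11-like locus PB.11099 and 1 form only at 24 loci. At 15 loci, the member names held under 80% of the counts, and only the forms with a member name were summed.

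White cultures were compared with white tissues to ask how the level of splicing factor transcripts in explant cultures stands to that in the tissues. Summed over all members, the level was 6370, 7710, 7244, 8399 and 8464 CPM in the white cultures of mouth rim, skin, skin, dodecaploid mouth rim and mouth rim, the order used for white cultures throughout. The 6 tissues had 12458 to 21085 CPM (median 16069). Every white culture was below every tissue, and the means were 7637 ± 870 CPM in cultures (SD, n = 5) and 16477 ± 3583 CPM in tissues (SD, n = 6), a ratio of 0.464. Without hnRNP A0 the means were 6182 CPM in cultures and 12828 CPM in tissues, and the groups still did not overlap.

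The families differed in this. The snRNP proteins summed to 804 ± 152 CPM in white cultures and 2950 ± 1446 CPM in tissues, and SR splicing factors to 1168 ± 80.9 CPM and 2709 ± 1074 CPM. The SF3 complexes summed to 1530 ± 301 CPM in white cultures and 1629 ± 750 CPM in tissues, values within the spread of the libraries. The SR repetitive matrix proteins varied widely among tissues, with 193 to 256 CPM in white cultures against 230 CPM in barbel, 576 CPM in dorsal skin, 1019 CPM in mouth rim, 1354 CPM in ampullae, 3490 CPM in esophagus and 4538 CPM in upper palate tissue. The upper palate, esophagus and ampullae tissues, highest in this family, are those with the lowest share of named counts, whose part in the family sum was not tested. A fit of SRRM1-like without these tissues is given below.

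**Figure D1:**
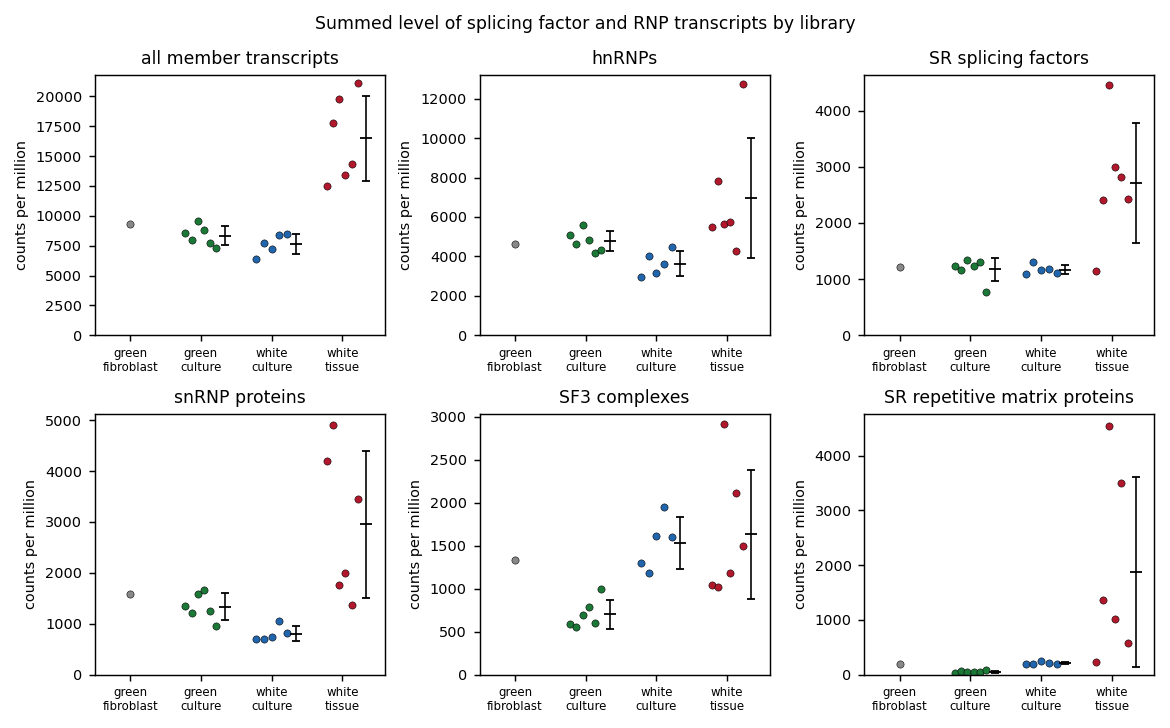
Summed CPM of all member transcripts and of 5 families in each library (points), with the mean and SD of each group of 5 or 6 libraries (bars). The 5 white cultures (6370 to 8464 CPM) lie below the 6 white tissues (12458 to 21085 CPM) for all members, while for the SF3 complexes the groups overlap.

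Across all loci, edgeR's quasi-likelihood test compared the 5 white cultures with the 6 tissues at a Benjamini-Hochberg false discovery rate (FDR) of 0.05. Of the 95 member loci, 31 passed the filter on low counts, 2 were higher in cultures, 22 were lower and 7 were not called. Over all 1862 loci tested, 27.6% were higher and 29.4% lower. The median log2 fold change was -1.68 over the 31 members tested and -0.04 over all loci tested. Scaling by library totals alone shifted the median of all loci by 0.31 on the log2 scale and left 2 members higher and 20 lower. No share over all loci is given for that fit. A locus with counts mainly in tissues passes the filter only through the tissues, so the test was also fitted without the filter. It then covered 91 members, of which 2 were higher and 29 lower, against 10.2% higher and 12.3% lower over all loci. Without the ampullae tissue, 14 of 24 members tested were lower, a fit for which no share over all loci is given.

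Among the SR repetitive matrix proteins, SRRM2 and SRRM1 were lower in white cultures. SRRM2 is a large scaffold protein of nuclear speckles. Its main locus, PB.9076, had 0, 0, 22.2, 0 and 0 CPM in white cultures, against 44.1 to 1431 CPM in tissues (median 248). All of the signal in cultures was 2 counts in 1 skin culture, while the tissues had 210 counts. This gave a ratio of pooled levels of 0.0110 (exact 95% interval 0.00132 to 0.0402, counting error only). The edgeR call had an FDR of 1.04e-04, at a locus that passed the filter on low counts only through the tissues. Without the filter, the edgeR FDR was 7.77e-17. The other SRRM2 loci were sparse. PB.12325 averaged 8.37 ± 10.7 CPM in white cultures and 11.5 ± 9.71 CPM in tissues, PB.24955 was seen in 2 tissues and PB.8035 in 2 tissues, and neither in any culture. No SRRM2 locus had a count in a green culture, and the green fibroblast library had 1 count at PB.12325.

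SRRM1-like (PB.22212), a coactivator that joins SR proteins on exons, had 196, 185, 233, 191 and 185 CPM in white cultures, against 162 to 2965 CPM in tissues (median 814). The barbel tissue lay below the cultures and the other 5 tissues above them, with the highest levels in upper palate and esophagus, which were also highest for SRRM2. The log2 fold change was -3.12 ± 0.66 (SE, edgeR FDR 8.16e-04), and -1.38 (FDR 0.0139) without the 3 tissues of lowest named share. A second locus of that name, PB.20084, had 0 counts in white cultures and 31 in tissues, at least 8.96-fold lower in cultures with a floor of 3 counts over the group.

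Among snRNP proteins, 5 of 6 tested loci were lower in white cultures and 1 was not called, against 29.4% lower over all loci tested. These 5 loci passed the filter on low counts only through the tissues. In the fit without the filter, 7 of 22 snRNP loci were lower and 0 higher, against 12.3% lower and 10.2% higher over all loci. U1-70K (PB.7674), the U1 protein that SR proteins contact, had 0, 0, 0, 122 and 80.2 CPM in white cultures, against 103 to 3022 CPM in tissues (median 545). Barbel and ampullae tissue stood far above the rest, and the dodecaploid culture reached above the lowest tissue, the upper palate. The log2 fold change was -5.16 ± 1.07 (edgeR FDR 6.85e-04). U1-70K passed the filter only through the tissues, and its edgeR FDR without the filter was 1.79e-14. The matching forms held 53.8% of the counts at this locus. SmB (PB.19604), a protein of the Sm ring shared by the snRNPs, averaged 126 ± 51.9 CPM in cultures and 428 ± 149 CPM in tissues with no overlap. The U5 helicase SNRNP200 (PB.27398), which unwinds U4 from U6, was not called, at 261 ± 85.3 CPM in cultures and 357 ± 208 CPM in tissues (FDR 0.099).

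The U2-associated SF3b complex did not move as a unit. SF3B3 (PB.14981), a scaffold subunit of SF3b, had 610, 556, 833, 1105 and 714 CPM in white cultures, against 12.9 to 311 CPM in tissues (median 78.3). All cultures exceeded all tissues, at a log2 fold change of 2.33 ± 0.49 (edgeR FDR 7.03e-04). SF3B3 passed the filter only through the cultures, and its edgeR FDR without the filter was 2.80e-05. SF3B1-like (PB.10664), the subunit that holds the branch point, had 186, 239, 367, 339 and 457 CPM in cultures, against 201 to 2398 CPM in tissues (median 532). It was lower in cultures with a log2 fold change of -1.96 ± 0.63 (FDR 0.0132), but the groups overlapped and the call was lost without the 3 tissues of lowest named share, at -0.47 (FDR 0.384). SF3A1-like (PB.11751) of the SF3a complex averaged 375 ± 63.2 CPM in cultures and 264 ± 182 CPM in tissues and was not called (FDR 0.789). The SF3B2 locus PB.26188 had 0 counts in cultures and 23 in tissues, at least 6.65-fold lower in cultures.

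Of 8 SR splicing factors tested, 5 were lower in white cultures and 3 were not called, against 29.4% lower over all loci tested. In the fit without the filter, 7 of 19 were lower and 0 higher, against 12.3% lower and 10.2% higher over all loci. SRSF6-like (PB.21488) had 155, 178, 233, 174 and 201 CPM in cultures, against 436 to 940 CPM in tissues (median 622), a log2 fold change of -2.14 ± 0.37 (edgeR FDR 1.39e-04). SRSF5-like (PB.14560) had 51.7, 69.5, 22.2, 52.2 and 40.1 CPM in cultures, against 118 to 342 CPM in tissues (median 214), and a log2 fold change of -2.47 ± 0.38 (FDR 5.76e-05). Neither factor overlapped between the groups. Both are SR proteins that act on exon choice. Apart from SRSF6-like at PB.21488, the lower factors passed the filter only through the tissues. Their edgeR FDR without the filter was 2.32e-04 for SRSF5-like and 4.77e-10 for SRSF6-like at PB.19768. It was 0.00776 for SRSF9-like (PB.11585) and 0.00404 for SRSF3 (PB.21698). The second SRSF6-like locus, PB.19768, had 3 counts in cultures and 100 in tissues, a ratio of pooled levels of 0.0346 (exact 95% interval 0.00702 to 0.104). SRSF11-like (PB.11099) did not differ beyond the spread, at 280 ± 69.5 CPM in cultures and 235 ± 90.0 CPM in tissues (FDR 0.846), and SRSF2b (PB.15902) averaged 381 ± 77.2 CPM and 610 ± 490 CPM (FDR 0.0745).

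Of 11 hnRNP loci tested, 8 were lower in white cultures and 1 was higher, against 29.4% lower and 27.6% higher over all loci tested. In the fit without the filter, 8 of 26 hnRNP loci were lower and 1 higher, against 12.3% lower and 10.2% higher over all loci. hnRNP A0-like, the most counted member, had 1065, 1875, 1422, 1157 and 1757 CPM in cultures, against 1477 to 7853 CPM in tissues (median 2772). The dorsal skin tissue was highest and the esophagus tissue fell within the culture range. Its log2 fold change was -1.57 ± 0.41 (edgeR FDR 0.00402). hnRNP M-like (PB.24508), a regulator of exon skipping, had 20.7, 23.2, 33.3, 0 and 8.02 CPM in cultures, against 58.8 to 638 CPM in tissues (median 263), a log2 fold change of -4.47 ± 0.71 (FDR 7.73e-05). hnRNP A1-like (PB.28070), which counters SR proteins, averaged 12.5 ± 10.6 CPM in cultures and 183 ± 99.6 CPM in tissues (FDR 5.21e-05). hnRNP C-like (PB.25701), which packages nascent RNA, averaged 35.6 ± 33.2 CPM in cultures and 179 ± 42.8 CPM in tissues (FDR 1.16e-04). These 3 loci did not overlap between the groups, and they passed the filter only through the tissues. Without the filter, their edgeR FDR was 9.52e-10 for hnRNP M-like, 9.54e-08 for hnRNP A1-like and 1.23e-04 for hnRNP C-like. The lower loci of hnRNP L-like (PB.26146), hnRNP D0-like (PB.1061) and hnRNP A3-like (PB.10500) also passed only through the tissues. Their edgeR FDR without the filter was 0.00127, 0.0211 and 0.115, so hnRNP A3-like was then not called.

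hnRNP U (PB.7008), a nuclear scaffold protein, was the exception in its family. It had 217, 208, 244, 331 and 377 CPM in white cultures, against 0 to 183 CPM in tissues (median 101), a log2 fold change of 1.17 ± 0.44 (edgeR FDR 0.0325). This call was lost without white culture 4 or 5, or without the ampullae, upper palate or dorsal skin tissue, and in 8 of 21 alternatives in all, among them the fit without the 3 tissues of lowest named share (0.68, FDR 0.158). hnRNP U passed the filter only through the cultures, and its edgeR FDR without the filter was 0.0356. hnRNP A/B-like (PB.26372) was lower in cultures, at 568 ± 157 CPM in cultures and 926 ± 390 CPM in tissues (FDR 0.0282), a call lost in 9 of 21 alternatives, including those without white culture 1, 2 or 3 or the ampullae tissue. hnRNP H-like (PB.22103), which binds G-rich runs, was not called, at 574 ± 202 CPM in cultures and 438 ± 144 CPM in tissues (FDR 0.837).

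**Figure D2:**
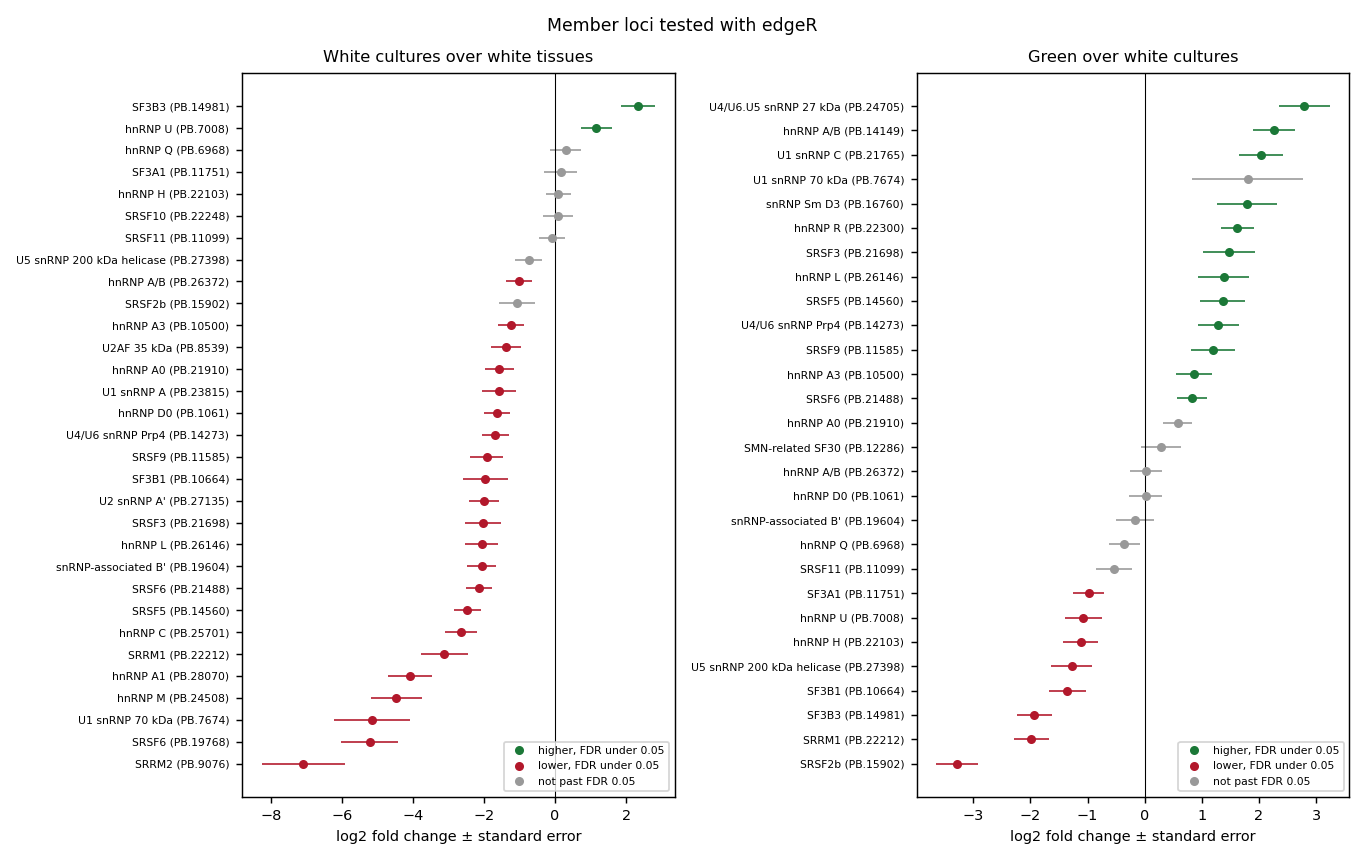
edgeR log2 fold change with its standard error for each member locus tested, for white cultures over white tissues (left, 31 loci) and green over white cultures (right, 28 loci). Loci past FDR 0.05 are green where higher and red where lower: 2 higher and 22 lower on the left, 12 higher and 8 lower on the right.

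Green cultures were compared with white cultures to ask how cultures of the species differ in the same medium. They also differ in site, with only the mouth rim in common, and the part of site was not tested. The white cultures enter both comparisons, so the values of the 2 comparisons are not independent. Summed over all members, green cultures had 7310 to 9563 CPM (median 8289) and white cultures 6370 to 8464 CPM. The means, 8337 ± 815 CPM in green (SD, n = 6) and 7637 ± 870 CPM in white cultures (SD, n = 5), differed by less than the spread, and without hnRNP A0 the difference changed sign, with 6061 CPM in green and 6182 CPM in white cultures. The families lay in opposite directions. The snRNP proteins summed to 1335 ± 264 CPM in green and 804 ± 152 CPM in white cultures, while the SF3 complexes summed to 702 ± 169 CPM in green and 1530 ± 301 CPM in white, and the SR repetitive matrix proteins to 53.7 ± 20.04 CPM in green and 211 ± 27.0 CPM in white cultures. SR splicing factors stood at 1178 ± 206 CPM in green and 1168 ± 80.9 CPM in white cultures.

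In the edgeR test over 2127 loci, 28 of the 95 members passed the filter. In green cultures 12 were higher and 8 lower, and 8 were not called. Over all loci tested, 30.3% were higher and 27.8% lower. The median log2 fold change was 0.43 over the members tested and 0.19 over all loci tested. Without the filter, 23 of 89 members were higher and 9 lower, against 15.2% and 14.4% of all loci. Of the 8 lower loci, 3 were then lost, SF3A1-like, hnRNP H-like and hnRNP U. Without replicate 6 of the green cultures 12 were higher and 8 lower, and without replicate 3, an esophagus culture, 7 were higher and 8 lower. For these leave-outs no share over all loci is given. Replicate 6 shares the library set of the white cultures. Where it alone was set against them, 3 members were higher and 2 lower, but a single library has no spread of its own, the fit assumes that it varies like the white cultures, and its levels are given below as values only.

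All 3 SF3 loci that passed the filter were lower in green cultures, though SF3A1-like was not called without it (edgeR FDR 0.154). Over all loci tested, 27.8% were lower. In the fit without the filter, 2 of 12 SF3 loci were higher and 2 lower, against 15.2% and 14.4% over all loci. Of 6 SF3 loci with 20 counts or more, 4 had a lower mean in green cultures and 2 a higher one. The second SF3B3 locus, PB.18136, averaged 63.2 ± 40.6 CPM in green and 1.74 ± 3.89 CPM in white cultures. SF3A2-like (PB.26555) averaged 45.6 ± 13.9 CPM and 13.1 ± 11.5 CPM. SF3B3 had 167 to 373 CPM in green cultures (median 179), against 556 to 1105 CPM in white cultures, with no overlap and a log2 fold change of -1.93 ± 0.31 (edgeR FDR 9.51e-05). Replicate 6 of the green cultures, the ampullae culture in the white set, was the highest at 373 CPM, while the other 5 lay between 167 and 185 CPM. SF3B1-like averaged 131 ± 49.5 CPM in green and 318 ± 107 CPM in white cultures (log2 fold change -1.35 ± 0.33, FDR 0.00272). SF3A1-like averaged 198 ± 59.2 CPM in green and 375 ± 63.2 CPM in white cultures (-0.98 ± 0.28, FDR 0.00681), with replicate 6 at 306 CPM, inside the range of the white cultures (286 to 453 CPM).

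SRSF2b (PB.15902), an SR protein of the SC35 type that sets 5′ and 3′ splice site choice, had the lowest log2 fold change among the 28 members tested between the species. It had 7.47 to 74.3 CPM in green cultures (median 40.2), against 321, 370, 333, 366 and 513 CPM in white cultures. The groups lay far apart, and the log2 fold change was -3.28 ± 0.36 (edgeR FDR 3.51e-06). Replicate 6 was the lowest green culture at 7.47 CPM, which is 1 count. SRRM1-like was also lower in green cultures with no overlap, at 32.2 to 89.6 CPM in green (median 46.4) and 185 to 233 CPM in white cultures (-1.98 ± 0.30, FDR 5.57e-05), and replicate 6 was the green culture nearest to the white ones at 89.6 CPM. Both SRSF2b and SRRM1-like passed the filter only through the white cultures. Both were called again without it (edgeR FDR 9.16e-04 for SRRM1-like).

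The other SR splicing factors called were higher in green cultures. SRSF3 (PB.21698), the smallest SR protein and an adaptor for export and 3′ end processing, had 112 to 186 CPM in green cultures (median 154), against 0, 69.5, 44.4, 95.7 and 40.1 CPM in white cultures, with no overlap (log2 fold change 1.48 ± 0.46, edgeR FDR 0.0132). SRSF5-like averaged 128 ± 49.3 CPM in green and 47.1 ± 17.4 CPM in white cultures (1.36 ± 0.39, FDR 0.0081). SRSF6-like (PB.21488) averaged 350 ± 80.5 CPM in green and 188 ± 29.99 CPM in white cultures (0.83 ± 0.26, FDR 0.0137), a call lost without white culture 2. Of 6 SR splicing factors tested, 4 were higher in green cultures and SRSF2b was lower, against 30.3% higher and 27.8% lower over all loci tested. Apart from SRSF6-like, the higher factors passed the filter only through the green cultures. In the fit without the filter, 6 of 17 were higher and 2 lower, against 15.2% higher and 14.4% lower over all loci. SRSF11-like was not called, at 195 ± 74.2 CPM in green and 280 ± 69.5 CPM in white cultures (FDR 0.151).

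Among snRNP proteins, 4 were higher in green cultures, 1 was lower and 2 were not called, against 30.3% higher and 27.8% lower over all loci tested. The 4 higher loci passed the filter only through the green cultures, and the lower one only through the white cultures. In the fit without the filter, 8 of 23 were higher and 2 lower, against 15.2% higher and 14.4% lower over all loci. SNRNP27 (PB.24705), a protein of the tri-snRNP, had 67.2 to 200 CPM in green cultures (median 138), against 10.3, 15.4, 11.1, 17.4 and 32.1 CPM in white cultures (log2 fold change 2.80 ± 0.44, edgeR FDR 8.47e-05). U1C (PB.21765), which steadies the pairing of U1 with the intron start, had 73.4 to 234 CPM in green cultures (median 137), against 51.7, 38.6, 22.2, 26.1 and 32.1 CPM in white cultures (2.04 ± 0.38, FDR 3.55e-04). Neither overlapped between the species. SmD3 (PB.16760), of the Sm ring, averaged 84.5 ± 31.3 CPM in green and 23.3 ± 17.4 CPM in white cultures (1.79 ± 0.53, FDR 0.00912), with replicate 6 at 22.4 CPM and the other green cultures at 83.6 CPM or more. SNRNP200 was lower, at 111 ± 53.2 CPM in green and 261 ± 85.3 CPM in white cultures (-1.28 ± 0.37, FDR 0.00762). U1-70K varied too widely to be called, with 0 to 347 CPM in green cultures (median 182) and 0 to 122 CPM in white cultures (FDR 0.121).

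Of 10 hnRNP loci tested, 4 were higher in green cultures and 2 lower, against 30.3% higher and 27.8% lower over all loci tested. The 4 higher loci passed the filter only through the green cultures. In the fit without the filter, 6 of 27 were higher and 0 lower, against 15.2% higher and 14.4% lower over all loci. hnRNP A/B-like at PB.14149, related to a transport factor for mRNA, had 241 to 402 CPM in green cultures (median 314), against 41.4, 100.3, 66.7, 17.4 and 80.2 CPM in white cultures, with no overlap (log2 fold change 2.26 ± 0.37, edgeR FDR 1.07e-04). Replicate 6 had 343 CPM. hnRNP R (PB.22300), which binds mRNA in axons in mammals, averaged 262 ± 54.1 CPM in green and 80.3 ± 24.9 CPM in white cultures (1.62 ± 0.29, FDR 2.70e-04), again with no overlap, over the 51.3% of counts at its locus that carried the name. hnRNP L-like (PB.26146), which binds CA repeats, averaged 234 ± 119 CPM in green and 86.0 ± 34.8 CPM in white cultures (1.38 ± 0.44, FDR 0.0148), a call lost without white culture 4.

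hnRNP H-like and hnRNP U were lower in green cultures, but neither was called without the filter (edgeR FDR 0.0683 for hnRNP H-like). hnRNP H-like had 224 to 371 CPM in green (median 244) and 300 to 783 CPM in white cultures (log2 fold change -1.12 ± 0.30, edgeR FDR 0.00542). hnRNP U had 89.3 to 261 CPM in green (median 117) and 208 to 377 CPM in white cultures (-1.07 ± 0.33, FDR 0.0118). Replicate 6, at 261 CPM of hnRNP U, lay inside the range of the white cultures. hnRNP A0-like was not called, at 2274 ± 389 CPM in green and 1455 ± 357 CPM in white cultures (FDR 0.0628), nor was hnRNP A/B-like at PB.26372, at 605 ± 116 CPM and 568 ± 157 CPM (FDR 0.941).

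**Figure D3:**
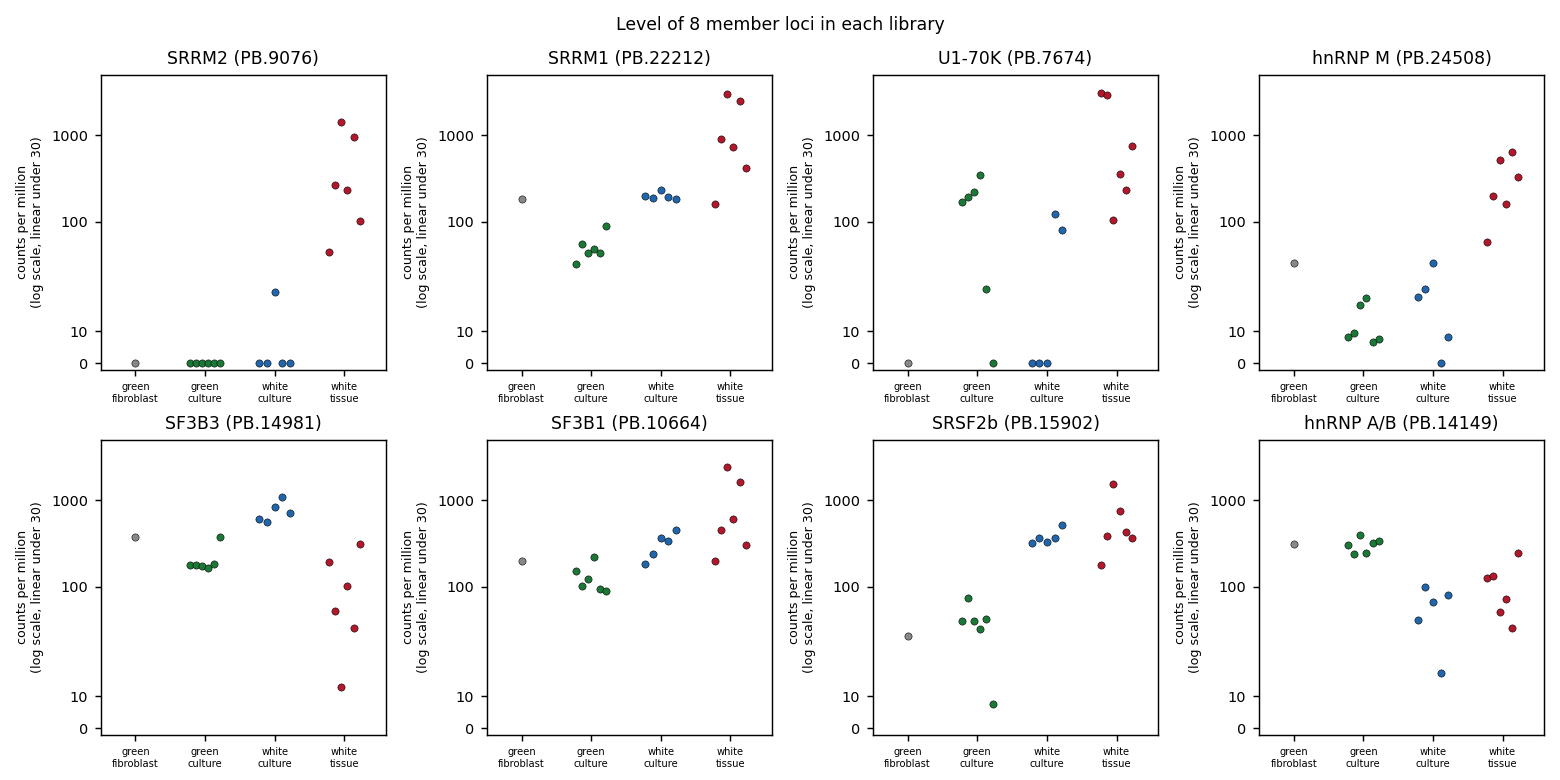
CPM of 8 member loci in each library, on a log scale that is linear under 30. SRRM2 (PB.9076), SRRM1 (PB.22212), U1-70K (PB.7674) and hnRNP M (PB.24508) reach their highest values in white tissues, SF3B3 (PB.14981) is highest in white cultures at 556 to 1105 CPM, SRSF2b (PB.15902) is lowest in green cultures and hnRNP A/B (PB.14149) is highest in them, at 241 to 402 CPM.

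Related genes were taken from 7 lists matched on protein names (Sm-like proteins, pre-mRNA processing factors, splicing helicases, exon junction and export, SR protein kinases, SR-like regulators and other splicing regulators). The lists hold 109 loci, some of them on more than 1 list. In white cultures against tissues, 25 of them were tested, 3 were higher and 9 lower, against 27.6% higher and 29.4% lower over all loci. Their median log2 fold change was -0.57, against -0.04 over all loci tested. Of the loci tested, 1 of 1 Sm-like protein and 1 of 1 helicase were higher, and 1 of 2 kinases, 2 of 3 SR-like regulators and 2 of 7 other regulators were lower. Of 6 pre-mRNA processing factors 1 was higher and 3 lower, and of 6 exon junction and export loci 1 was higher and 1 lower. CLK4b (PB.14033), of the kinases that phosphorylate SR proteins, had 8.02 to 33.3 CPM in white cultures and 49.0 to 2127 CPM in tissues (-5.91 ± 0.95, edgeR FDR 8.34e-05). RNA-binding protein 39 (PB.19833), an SR-like partner of U2AF, had 136 to 259 CPM in white cultures and 191 to 3625 CPM in tissues (-3.48 ± 0.73, FDR 7.42e-04). In the other direction, LSm4 (PB.24306), of the ring on U6 RNA, averaged 731 ± 363 CPM in cultures and 70.3 ± 34.5 CPM in tissues (2.96 ± 0.42, FDR 2.80e-05), and the helicase DHX15 (PB.2550), which releases spent spliceosomes, averaged 405 ± 76.8 CPM and 115 ± 50.2 CPM (1.49 ± 0.37, FDR 0.00257). CLK4b passed the filter on low counts only through the tissues, and LSm4 only through the cultures. No fit without the filter is given for the related loci, so their counts of calls hold for the filtered fit alone.

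Between the species, 20 of the 109 related loci were tested, 2 were higher in green cultures and 6 lower. Over all loci, 30.3% were higher and 27.8% lower. The median log2 fold change of the related loci was -0.19, against 0.19 over all loci tested. By list, 1 of 5 pre-mRNA processing factors was higher, 1 of 1 Sm-like protein, 1 of 5 exon junction and export loci and 2 of 4 other regulators were lower, and neither the 1 helicase nor the 1 kinase tested was called. Of 4 SR-like regulators 1 was higher and 2 lower. Transformer-2 beta (PB.10398), an SR-like exon activator, averaged 224 ± 62.8 CPM in green and 3.81 ± 5.25 CPM in white cultures (5.66 ± 0.60, edgeR FDR 2.61e-06). Splicing factor 1 (PB.26062), the first protein on the branch point, averaged 12.3 ± 6.65 CPM in green and 300.1 ± 105.5 CPM in white cultures (-4.65 ± 0.44, FDR 1.27e-06). LSm4 averaged 52.0 ± 12.4 CPM in green and 731 ± 363 CPM in white cultures (-3.79 ± 0.37, FDR 1.62e-06). Transformer-2 beta passed the filter only through the green cultures, and splicing factor 1 and LSm4 only through the white cultures. Here too, no fit without the filter is given for the related loci.

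Iso-Seq reads span whole transcripts, so the forms at a locus can be compared. The use of forms was tested with edgeR's diffSpliceDGE, which asks whether a form changed differently from the rest of its locus. Few member loci had 2 forms that passed the filter. In white cultures against tissues 4 were tested and 0 were called at an FDR of 0.05 (lowest Simes FDR 0.464), with 0 past an unadjusted p of 0.05, nor was any by limma or by the F test over a locus, against 22.8% of the 189 loci tested. Leaving out 1 white culture admitted more loci, and 4, 2, 6, 3 and 2 loci were called of 9, 6, 9, 7 and 6 tested without culture 1, 2, 3, 4 and 5, while leaving out any 1 tissue gave 0. No share over all loci is given for these fits, so their counts are not read as a result about the members. In green against white cultures 4 of 7 were called, against 39.5% of 276 loci. A wider test, chosen after the data were seen, took every form with 10 counts over the compared libraries. It called 8 of 42 member loci in white cultures against tissues (22.5% of all 2137 loci) and 15 of 36 in green against white cultures (27.4% of 2722). Some of these loci hold few member transcripts. Where member names held at least 80% of the counts, 6 of 34 and 12 of 28 loci were called.

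Reads of both species were aligned to the sterlet genome, whose part in forms that differ between the species was not tested. Of the 4 loci called between the species, 3 were chiefly member transcripts. At SF3B3, form PB.14981.15 was at 0 in all 6 green cultures and took 23.7%, 20.8%, 30.7%, 20.5% and 22.5% of the locus in white cultures (relative log2 fold change -4.20, Simes FDR of the locus 4.42e-08). The main form, PB.14981.10, held 92.3% to 100% in green cultures and 62.7% to 74.8% in white cultures. At hnRNP A/B-like PB.14149, form PB.14149.29 held 39.4% to 64.1% of the locus in green cultures and 0 in each white culture (relative log2 fold change 3.55, Simes FDR 1.17e-04), and PB.14149.3 held 23.1% to 42.6% in green and 50% to 100% in white cultures. Both are named isoform X1 of the protein, so the forms are not told apart by the name. The member forms at PB.14149 had only 2 to 13 counts in single white cultures. At SRSF2b, PB.15902.15 (isoform X1) held 0 to 9.09% in green and 28.1% to 47.9% in white cultures (-1.86, Simes FDR 9.23e-04), beside PB.15902.17 (isoform X2) with 62.5% to 100% in green and 35.7% to 48.4% in white cultures. SRSF2b had only 1 to 16 counts in single green cultures, and the 100% is 1 of 1 count. The remaining locus, PB.16482, has 2 counts named U2 A′-like out of 2842. Its called form, PB.16482.20, and its main form, PB.16482.5, are named selenoprotein S-like. Form 20 held 19.5% to 29.9% in green and at most 0.752% in white cultures, and form 5 held 62.7% to 75.6% and 89.1% to 91.1%.

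The SF3B1-like locus, named here after its values were seen, divided by both species and culture. The part of alignment to the sterlet genome in its division by species was not tested. Form PB.10664.15 held 69.7% to 89.7% of the locus in white cultures, against 0 to 8.33% in green cultures and 0 to 24.4% in white tissues. Form PB.10664.13, with the same protein name, held 58.3% to 75.9% in green cultures, at most 5.56% in white cultures and at most 1.28% in white tissues. Another form, PB.10664.35, had 66 counts in all 6 tissues and none in white cultures. In the wider test the locus was called in both comparisons (Simes FDR 5.13e-04 for white cultures against tissues and 1.99e-07 for green against white cultures). The U5 helicase SNRNP200 was alike in that its form PB.27398.1 held 58.6% to 67.7% in white cultures and 0 to 8.51% in tissues (Simes FDR 2.20e-06). SRRM1-like form PB.22212.18 held 50% to 81.0% in white cultures and 0 to 22.2% in tissues (FDR 1.95e-04).

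**Figure D4:**
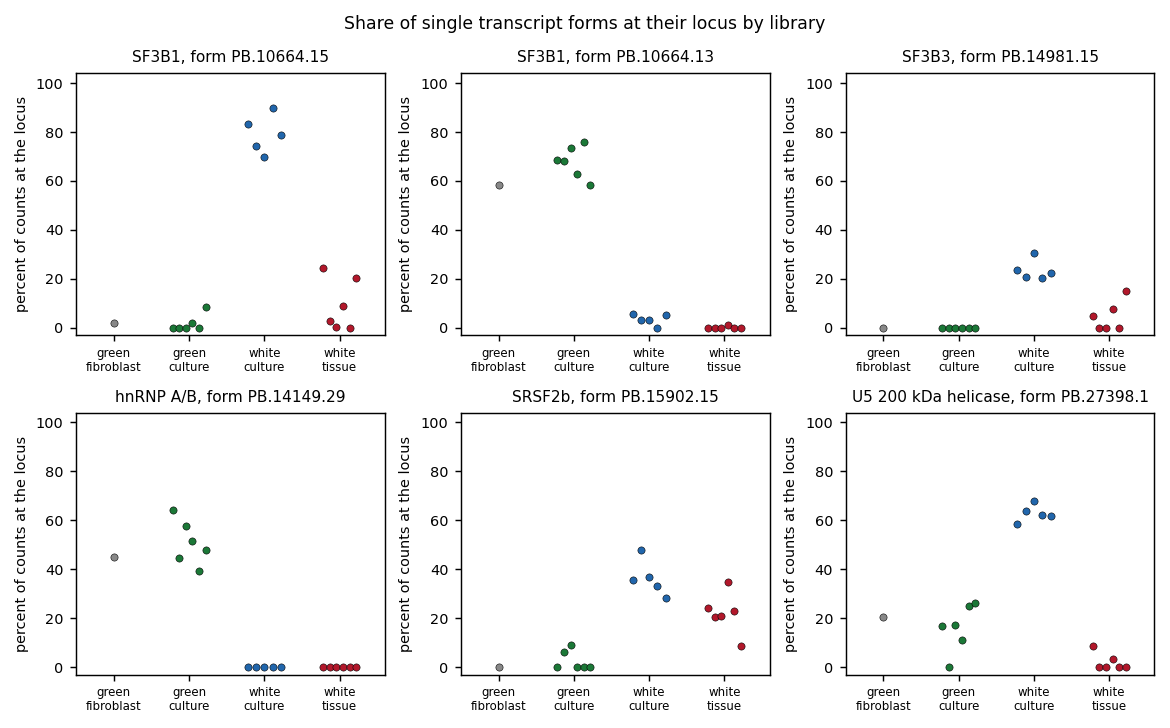
Share of the counts at a locus held by single transcript forms in each library, for SF3B1, SF3B3, hnRNP A/B, SRSF2b and the U5 helicase SNRNP200. PB.14149.29 holds 39.4% to 64.1% in the green cultures and 0 in the white libraries, and PB.10664.15 holds 69.7% to 89.7% in the white cultures and at most 24.4% elsewhere.

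Pooled by group, white cultures spread their counts over fewer forms than tissues. With the pooled counts of each group thinned to 50 at each locus, 13 of 15 member loci had fewer expected forms in white cultures than in tissues, and the median over the 15 loci was 5.53 forms in cultures and 8.11 in tissues. Over all 1181 loci with enough counts, 88.7% had fewer in cultures, so the members do not stand out here. The pools joined mouth rim and skin cultures on the culture side and 6 different sites on the tissue side, whose part was not tested. With each library thinned to 428 member counts, the groups overlapped. White cultures had 89.9 to 114 expected member forms and tissues 103 to 153, the lowest tissue being barbel. Forms of all loci, at 29797 counts per library, also overlapped (6785 to 7973 and 6880 to 9579). At SF3B1-like the expected number was 9.16 in white cultures and 19.0 in tissues, and at hnRNP U 4.96 and 14.0. In green against white cultures 9 of 16 member loci had fewer forms, against 40.9% of 1422 loci. Of 93 member forms with 20 counts or more over white cultures and tissues, 11 (11.8%) were absent from the cultures and 0 from the tissues. Over all 6349 such forms, 4.88% were absent from the cultures and 2.85% from the tissues. The 11 include 4 forms of SRRM1-like, 3 of SF3B1-like and the form PB.9076.53 of SRRM2, which had 69 counts over all 6 tissues.

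Between the cultures, 5 of 70 member forms with 20 counts or more (7.14%) were seen in green only and 2 (2.86%) in white only, near the 8.39% and 4.14% of all 7773 such forms. These were looked up in the libraries that did not enter that comparison. The green fibroblast library had 4 of the 5 green forms, among them PB.14149.29 of hnRNP A/B-like with 35 counts, PB.18136.7 of SF3B3 with 29 and PB.11099.55 of SRSF11-like with 5. The white tissues had 2 of the 5, each with 1 count. Both white forms were found in white tissues, PB.14981.15 of SF3B3 with 9 counts and PB.23815.20 of U1A-like with 73, and neither in the fibroblast library. Over all transcripts, 341 of 652 green forms (52.3%) and 267 of 322 white forms (82.9%) were found only in further libraries of their own species. The part of alignment to the sterlet genome was not tested here.

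In all, 10 pairs of loci with at least 50 counts each shared a protein name. Where reads of green or white sturgeon are placed on similar copies in the sterlet genome, the counts of such a pair can be split between them. At hnRNP A/B-like, PB.14149 held 28.4% to 38.9% of the pair in green cultures and 2.41% to 15.1% in white cultures, the rest being at PB.26372. At SF3B3, PB.18136 held 15.4% to 28.4% in green and 0 to 0.781% in white cultures, with 77 counts in green and 1 in white cultures. At SRSF5-like, PB.14557 held 15.6% of the pair in pooled white cultures and 44.98% in pooled white tissues. By library the groups overlapped, at 0 to 37.5% in white cultures, on 5 counts, and 20% to 75.9% in tissues. Member names held only 13.9% of the counts at PB.14557. At SRSF6-like, PB.19768 held 2.80% in pooled white cultures (0 to 7.41% by library) and 21.2% in pooled white tissues (9.18% to 41.98%). At hnRNP L-like the share of PB.23919 ranged over 11.4% to 43.2% in green cultures, 0 to 70.0% in white cultures and 12% to 54.5% in tissues.

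The species lay apart in 2 further pairs, chosen after their values were seen. U2AF35 is the U2AF subunit that reads the end of the intron. Its locus PB.8539 held 9.38% to 24.4% of the pair in green cultures and 21.2% in the green fibroblast library, against 25% to 100% in white cultures and 69.2% to 100% in white tissues. The lowest white value came from 1 mouth rim culture with 1 of 4 counts, just above the highest green value, and no library overlapped between species. For U1A-like, the U1 protein on stem loop II, PB.23815 held 0 to 10% in green cultures and 10.7% in the fibroblast library, against 46.2% to 100% in white cultures and 33.3% to 78.2% in white tissues. The 100% is 1 count in mouth rim culture 1. The 33.3% is 1 count at PB.23815 and 2 at PB.7613 in esophagus tissue.

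**Figure D5:**
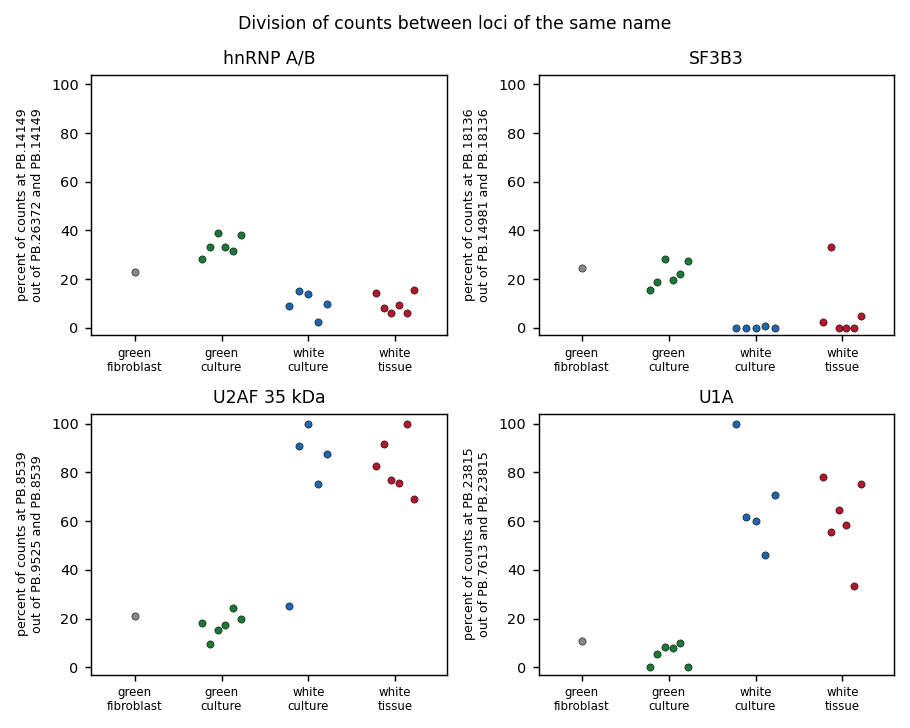
Share of the second locus in 4 pairs of loci with the same protein name, by library. For U2AF35 the green libraries lie at 9.38% to 24.4% and the white tissues at 69.2% to 100%, and for U1A the green cultures lie at 0 to 10%.

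The green fibroblast and adipocyte library had 2272 member counts, or 9349 CPM, next to 7310 to 9563 CPM in the 6 green epithelial cultures. It is a single library, so no test was made, and the exact Poisson intervals below cover counting error only. Of 59 loci with 10 counts or more in these libraries, 50 had an interval that met the range of the green cultures, 8 lay above it and 1 below. Over all 6383 loci counted in the same way, 10.7% lay above and 5.4% below. hnRNP A/B-like (PB.26372) had 1058 CPM (95% interval 932 to 1195) against 483 to 773 CPM in green cultures, SF3A1-like 432 CPM (353 to 523) against 137 to 306 CPM, PRPF4 (PB.14273), a tri-snRNP protein, 387 CPM (313 to 473) against 92.9 to 228 CPM, and SRRM1-like 181 CPM (132 to 243) against 32.2 to 89.6 CPM. hnRNP L-like (PB.26146) had 0 counts (0 to 15.2 CPM), against 69.5 to 398 CPM in green cultures. SRSF2b stood at 28.8 CPM, among the green cultures and below all white libraries.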

How the data were processed

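The data were 1 deposited table of counts, whole numbers of full-length reads per transcript in 18 libraries. RNA was purified on RNeasy Plus columns, and 300 ng gave cDNA that was amplified over 15 PCR cycles for Sequel II sequencing, so counts are not independent molecules. The authors made the counts with IsoSeq3 (v3.4.0), alignment to the sterlet genome (aligner not given in the sources used here), Sqanti3 (v4.1) filters and blastp against sterlet proteins. Neither species was aligned to its own genome. The stated minimum was 3 supporting reads, while the lowest row total is 2. No value column lacked a library.

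Member rows were summed by PacBio locus, and other rows of those loci were kept apart. The members and gene lists were chosen with earlier results of these data known. Counts were tested with edgeR 4.0.16 (TMM, filterByExpr, quasi-likelihood test, Benjamini-Hochberg FDR 0.05 over all loci) in R 4.3.3, and forms with its diffSpliceDGE. Standard errors were derived from the F statistics. DESeq2 1.42.0, limma 3.58.1, other scalings and filters, and leaving out libraries were alternatives. Sums over members were not tested. Python 3.11.15 with pandas 2.3.3 and scipy 1.17.1 was used for the rest. Scripts were tested on simulated data. A related locus belongs to a list by its most counted name. Loci were named by rule: the 12 most counted, up to 8 called per direction and comparison by fold change, up to 6 called for forms, every SRRM2 locus, 5 pairs of the same name and 3 called loci per related list. Sequences were not used here, and 1 list of related genes is not reported here.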

Additional observations from a re-analysis of the deposited data

Results flagged for a closer look

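In each group of 5 or 6 libraries, the library farthest from the rest was tested by Dixon's ratio of its gap to the range of the group. Of 94 sets of member levels, 12 held a library past the 95% critical value. The chance rate of about 1 in 20 holds for continuous values, and several of these sets rest on few counts. Where only 1 library of a group has any counts, the gap equals the range by construction. No excess over chance is therefore read from the 12. Of the 12, 4 fell on the green ampullae culture that is numbered with the white cultures (replicate 6). It had 373 CPM of SF3B3 at PB.14981 with the other green cultures at 167 to 185, 142 CPM at the second SF3B3 locus PB.18136 with the others at 32.2 to 69.4, 261 CPM of hnRNP U (PB.7008) with the others at 89.3 to 149, and 22.4 CPM of SmD3 (PB.16760) with the others at 83.6 to 105. This culture also had the highest share of connective tissue transcripts among the epithelial cultures, at 0.809%, whose part in these values was not tested.

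Among the white cultures, skin culture 3 had 22.2 CPM of SRRM2 (PB.9076), absent from the other 4, and 233 CPM of SRRM1-like (PB.22212) with the others at 185 to 196. Mouth rim culture 1 had 93.1 CPM of hnRNP C-like (PB.25701) with the others at 11.1 to 32.1, and 31.0 CPM of SRSF5-like at PB.14557 with the others at 0 to 8.70. Mouth rim culture 5 had 513 CPM of SRSF2b (PB.15902) with the others at 321 to 370. The dodecaploid mouth rim culture had 8.70 CPM, a single count, of SF3B3 at PB.18136, where the others had 0.

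Among the tissues, dorsal skin had 716 CPM of hnRNP H-like (PB.22103) with the others at 303 to 436. Ampullae tissue had 39.8 CPM, or 3 counts, of the SRRM2 locus PB.24955 with the others at 0 to 12.9.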

How the results depend on the processing

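The summed member level was lower in white cultures than in white tissues under every alternative tried, with a difference of -12212 to -6646 CPM and no overlap of the groups. In green against white cultures the summed difference was 700 CPM (383 to 906 with 1 library left out) and changed sign only without hnRNP A0, at -121 CPM. In white cultures against tissues, the 2 higher loci became 1 where only mouth rim and skin tissue were used, without the 3 tissues of lowest named share, and at an FDR of 0.01 (1 to 3 with 1 library left out), and hnRNP U was the locus lost. The 22 lower loci ranged over 14 to 24 with 1 library left out, the fewest without ampullae tissue, where 7 of the 22 were not tested. In green against white cultures, the 12 higher loci became 23 without the filter, 7 at an FDR of 0.01, 3 with only the green ampullae culture of replicate 6, and 7 to 14 with 1 library left out. The 8 lower loci became 2 with that ampullae culture alone, and 8 or 9 with 1 library left out. A fit with that single library assumes that it varies like the white cultures. With that ampullae culture alone, hnRNP U stood at a log2 fold change of 0.015, against -1.07 over all green cultures. Loci called for form use in white cultures against tissues were 0, but 8 with the wider set of forms and 0 to 6 with 1 library left out. In green against white cultures they were 4, then 15 with the wider set, 6 by limma or the F test, and 3 to 5 with 1 library left out. Leaving the unnamed locus PB.26569 out of the totals gave the same counts of 2 and 22. The leave-outs of hnRNP A0, of PB.26569 and of the 3 tissues, and the wider set of forms, were chosen after the data were seen. Apart from the fits without the filter and with the wider set of forms, no share over all loci is given for these alternatives. The loci tested also change between fits, so these counts of loci called are not read as a result about the members.

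The labels give groups the same replicate numbers. Same-numbered libraries did not deviate together (r of -0.26 to 0.06 in white cultures against tissues, -0.14 to 0.17 in green against white cultures), and 1 of 5 numbers in each comparison was the best match of its own library. With the number as a replicate block, 1 locus was higher and 20 lower in white cultures against tissues, and 10 were higher and 8 lower in green against white cultures. No share over all loci is given for these fits, so their counts are not read as a result about the members.

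At the depth of the esophagus tissue a single count was 33.6 CPM, so loci under that level there could not be told from 0. With 5 and 6 libraries, loci with few counts were not tested, and 24 members had fewer than 10 counts over all libraries.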
